A study of Mus musculus with 30 samples.

Results

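Cadherin and protocadherin genes were taken as every row of the deposited table whose symbol begins with Cdh and a digit, with Cdhr or with Pcdh and holds no hyphen, which gave 77 of 17775 rows. They comprised 11 classical cadherins, 2 cadherin-related genes, 14 members of the alpha protocadherin cluster, 22 of the beta cluster, 22 of the gamma cluster and 6 protocadherins outside the clusters. To be tested, a gene had to reach a log2 value of 5 in 4 or more libraries, and 76 members did. The exception was Pcdh7, a protocadherin outside the clusters, which reached 5 in 2 libraries only, alpha DT 3 (6.0) and alpha DT 4 (5.95).

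The 30 bulk RNA-seq libraries were made from mouse islet cells sorted by their fluorescent reporter. The alpha group (n = 8) came from Glucagon-Venus mice aged 3 months, in which glucagon-producing cells carry a yellow fluorescent protein. The alpha DT group (n = 4) came from Glucagon-Venus mice that also carried RIP-DTR, the diphtheria toxin receptor under an insulin promoter. They received diphtheria toxin (DT) at 2 months of age and were sampled 30 days later. The alpha Pdx1 group (n = 5) came from mice aged 3 months with Glucagon-rtTA, TetO-Cre, R26YFP and CAG-Pdx1, a system that switches on the beta-cell transcription factor Pdx1 in glucagon-producing cells. The alpha Pdx1 DT group (n = 6) carried those 4 alleles plus RIP-DTR and received the toxin on the same schedule. The beta group (n = 7) came from Insulin-mCherry mice aged 3 months. RIP-DTR and the toxin differed together between groups, so they cannot be told apart. The sorting reporter, Glucagon-rtTA and TetO-Cre differed together with Pdx1, so their parts cannot be told apart from that of Pdx1. The reporter also differed together with cell type between beta and alpha, which cannot be told apart either. The labels do not say that libraries came from separate mice, so p-values measure only the spread between these libraries.

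Classical cadherins are single-pass membrane proteins that bind the same cadherin on the neighbouring cell and are tied to actin inside the cell by catenins. In islets, Cdh1 (E-cadherin) and Cdh2 (N-cadherin) hold endocrine cells together, and the contacts they make bear on islet architecture and on insulin secretion. The clustered protocadherins lie in 3 gene arrays on chromosome 18. Each alpha and gamma transcript joins 1 variable first exon, driven by its own promoter, to constant exons shared by the cluster, and the combination of isoforms on a neuron serves as a surface identity tag.

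Several libraries stood apart from the rest of their groups. Alpha 8 had a Pdx1 log2 value of 11.2, whereas the other 7 alpha libraries lay between 3.66 and 5.61. Alpha Pdx1 DT 5 had Pdx1 at 5.51 and alpha Pdx1 5 at 8.61, against 10.8 to 12.6 in the other 9 libraries of those 2 groups. Glucagon was the most abundant transcript of beta 1 and beta 5 but of no other beta library. Of all 435 pairs of libraries, the closest was alpha 4 with the library labelled alpha Pdx1 DT 5. Their median absolute difference was 0.112 over the genes tested and 0.167 over the members, against 0.195 over the genes in the next closest pair. Results are therefore given with all 30 libraries. For the counts and leading members that moved, they are also given without 5 libraries (alpha 8, beta 1, beta 5, alpha Pdx1 DT 5 and alpha Pdx1 5). These 5 were chosen by their Pdx1 or glucagon values, so the fit without them is not an independent check of any member. All 6 alpha-cell markers were lower and all 7 beta-cell markers higher in beta than in alpha, and Mafa was below 5 in every library of the 4 groups labelled as alpha-cells. Between 51 and 71 members reached a log2 value of 5 in a library.

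Of the 6 members that were higher than alpha in both Pdx1 groups, 4 have an upstream window in the RefSeq table of GRCm38.p6, and these windows are shown because homeodomain factors such as Pdx1 bind sites built around the letters TAAT. Each line gives the 250 bases before the start, 5′ to 3′ on the gene's strand, with TAAT or its reverse complement ATTA in capitals. The Cdh24 window is chr14:54641365-54641614 on the minus strand. The Cdhr1 window is chr14:37098348-37098597 on the minus strand. The Pcdh15 window is chr10:73821617-73821866 on the plus strand and lies within the Pcdh15 gene outside its annotated exons. The Cdh8 window is chr8:99416472-99416721 on the minus strand and overlaps an exon of A330008L17Rik on the other strand.
Cdh24: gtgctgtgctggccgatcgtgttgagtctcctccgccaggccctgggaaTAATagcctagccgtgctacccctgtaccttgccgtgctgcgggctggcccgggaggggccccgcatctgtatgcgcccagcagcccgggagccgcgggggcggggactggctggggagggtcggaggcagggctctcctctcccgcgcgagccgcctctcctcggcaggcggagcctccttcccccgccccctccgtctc
Cdhr1: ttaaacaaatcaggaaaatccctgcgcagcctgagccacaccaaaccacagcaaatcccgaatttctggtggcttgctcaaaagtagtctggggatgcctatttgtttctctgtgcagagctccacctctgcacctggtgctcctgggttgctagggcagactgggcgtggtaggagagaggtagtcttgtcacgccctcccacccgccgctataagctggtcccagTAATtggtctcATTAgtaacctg
Pcdh15: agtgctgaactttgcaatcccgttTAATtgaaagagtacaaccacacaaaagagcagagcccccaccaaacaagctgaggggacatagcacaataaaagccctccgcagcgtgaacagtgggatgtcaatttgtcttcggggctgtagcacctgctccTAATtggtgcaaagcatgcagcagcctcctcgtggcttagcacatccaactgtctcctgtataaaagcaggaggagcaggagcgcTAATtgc
Cdh8: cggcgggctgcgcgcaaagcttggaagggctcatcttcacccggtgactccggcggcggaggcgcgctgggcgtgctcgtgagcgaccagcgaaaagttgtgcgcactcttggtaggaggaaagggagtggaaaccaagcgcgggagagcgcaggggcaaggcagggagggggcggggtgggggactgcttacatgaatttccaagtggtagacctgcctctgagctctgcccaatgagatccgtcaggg
The windows of Cdh24, Cdhr1 and Pcdh15 held 1, 2 and 3 matches, and that of Cdh8 held 0. At least 1 match was present in 54.9% of all 32851 windows in the table and in 9 of the 14 member windows, so a match is common. The longer TAATTA, a palindrome that contains both, was in 4.84% of all windows and in 0 of 14 member windows. The matches are a description of the letters in these windows.

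Which adhesion genes distinguish the 2 endocrine cell types was read from beta against alpha. Beta libraries had more Cdh7, Cdhr1, Cdh22, Cdh1 and most of the alpha protocadherin cluster, and far less Pcdh9, Cdh9 and Pcdh8. Of 76 tested members, 22 were higher and 5 lower in beta at an adjusted p under 0.05 (limma, Benjamini-Hochberg over 16633 genes), or 35.5%. The same threshold was passed by 34.5% of all genes tested (16.9% higher and 17.6% lower), so the share of members was close to the background. These are bulk libraries, in which fewer cells of a type and less RNA per cell cannot be told apart.

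The 3 largest deficits in beta were of homophilic adhesion genes best known from neurons. Pcdh9 (chromosome 14, 93013410-93890679, GRCm38), a protocadherin outside the clusters, had alpha values of 9.11 to 10.7 (lowest to highest, median 9.81) and beta values of 3.92 to 7.34 (median 4.49). The difference was -4.77 ± 0.37 (log2 fold change ± SE, adjusted p = 1.04e-11). The 2 groups did not overlap, and the 2 highest beta values, 6.63 and 7.34, were those of beta 1 and beta 5, the libraries with glucagon on top. All 15 libraries of the other 3 groups were at 9.03 or above, so every library labelled as alpha-cells was above every beta library.

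Cdh9, a type II classical cadherin of synapses on chromosome 15, ranged over 9.58 to 10.8 in alpha (median 10.1) and 5.54 to 8.59 in beta (median 5.76). It fell by 3.72 ± 0.35 on the log2 scale in beta (adjusted p = 4.83e-10) with no overlap, and beta 1 and beta 5 were again the 2 highest beta libraries. Without the 5 libraries, the differences grew to -5.41 for Pcdh9 and -4.44 for Cdh9. That fit leaves out the 2 highest beta libraries of both genes, so the growth is not an independent check. Pcdh8, an activity-regulated protocadherin, went from a median of 8.0 in alpha (6.59 to 9.21) to 3.85 in beta (3.73 to 5.56). Its difference of -3.56 ± 0.47 passed the test (adjusted p = 2.32e-07), and the groups did not overlap.

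Cdh12 and Cdh18, 2 further type II cadherins on the same chromosome as Cdh9, were also lower in beta. Cdh12 differed by -2.24 ± 0.43 (adjusted p = 8.66e-05), with alpha values of 3.31 to 7.08 and beta values of 2.74 to 3.66 that overlapped through 1 low alpha library, alpha 5. Cdh18 differed by -1.94 ± 0.45 (adjusted p = 0.00091), from 4.92 to 6.59 in alpha to 2.98 to 4.48 in beta, without overlap. Beta values of both lay below the log2 value of 5 used as the filter. Summed mesenchymal markers moved the same way, at 9.75 to 12.05 in alpha and 6.52 to 8.91 in beta for the 5 of 7 markers in the table, with Col1a1 and Lum below 5 in every beta library. Ppy, the PP-cell marker, was called lower in beta at -3.1 ± 0.66, with 14.97 to 17.92 in alpha and 11.27 to 16.47 in beta. The delta-cell marker Rbp4 differed by -2.54 ± 0.34, and delta markers summed to 14.53 to 16.14 in alpha and 12.03 to 16.79 in beta. Beta 1 and beta 5 had the 2 highest beta sums of the mesenchymal, PP and delta markers. The part of these markers in the lower members was not tested.

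On the other side, Cdh7, a type II cadherin of the developing nervous system (chromosome 1, 109982431-110140157), was near the floor of the scale in alpha. It ranged over 0.86 to 2.81 there (median 1.85) and over 6.06 to 7.57 in beta (median 7.09). The difference of 5.18 ± 0.53 (adjusted p = 1.59e-09) was the largest among members, and the groups did not overlap. Its size depends on those low alpha values, and the call held in all 7 other fits and without any 1 library.

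Cdhr1, a photoreceptor cadherin, had alpha values of 8.63 to 10.8 (median 8.79) and beta values of 11.3 to 12.3 (median 12.1), a difference of 2.80 ± 0.30 (adjusted p = 5.86e-09). Every beta library was above every alpha library, and the highest alpha value belonged to alpha 8. Cdh22, a classical cadherin described in brain and pituitary, was 3.77 to 5.5 in alpha and 6.29 to 7.36 in beta, and its difference of 2.53 ± 0.44 passed (adjusted p = 2.16e-05) without overlap. Cdh1, the epithelial cadherin of adherens junctions, was 11.9 to 13.5 in alpha and 13.6 to 14.1 in beta. It was higher in beta by 1.31 ± 0.21 (adjusted p = 8.2e-06), and no library overlapped, with alpha 8 (13.48) closest to the beta range. Cdh2, the other main islet cadherin, differed by 0.20 ± 0.13 (adjusted p = 0.253), Cdh4 by 1.12 ± 0.46 (adjusted p = 0.0587) and Cdh11, a mesenchymal cadherin, by -0.18 ± 0.36 (adjusted p = 0.732), none of which passed.

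**Figure D1:**
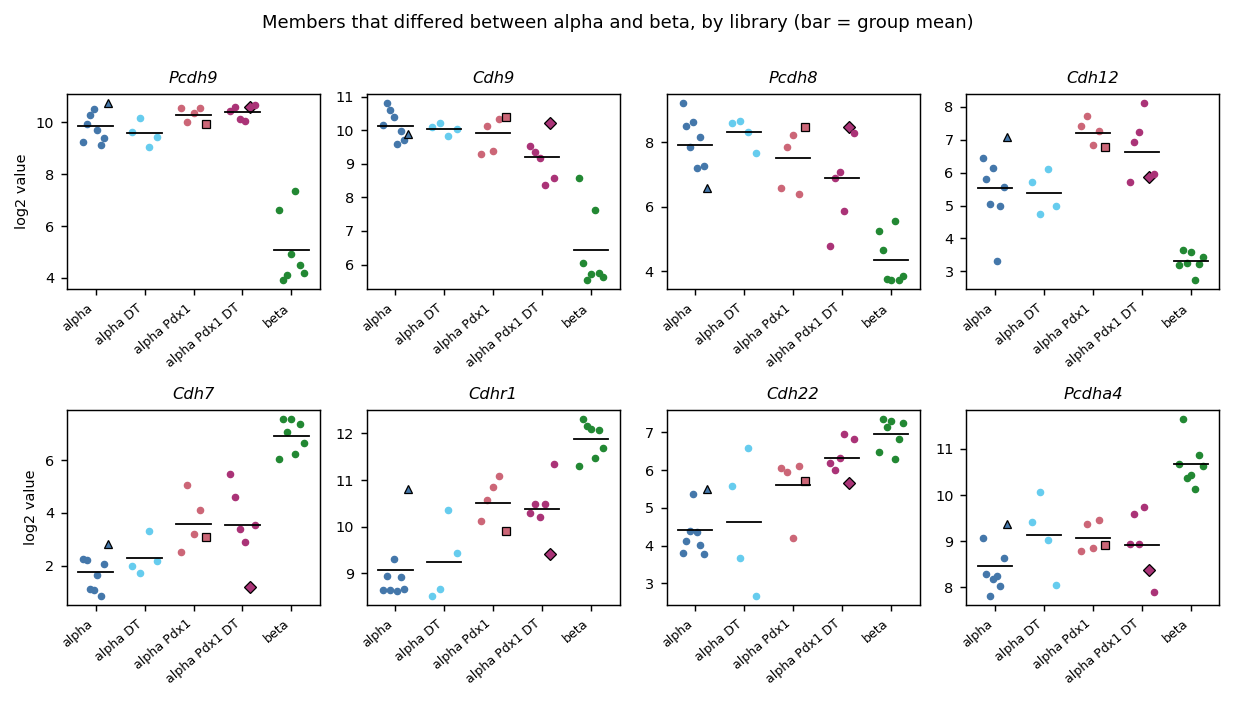
Log2 values of 8 members by library in the 5 groups, each panel with its own vertical axis and a bar at the group mean. The triangle is alpha 8, the square alpha Pdx1 5 and the diamond alpha Pdx1 DT 5. Pcdh9, Cdh9, Pcdh8 and Cdh12 were lower and Cdh7, Cdhr1, Cdh22 and Pcdha4 higher in beta than in alpha, and beta 1 and beta 5 are the 2 highest beta points for Pcdh9 and Cdh9.

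The alpha protocadherin cluster was higher in beta as a group. Of its 14 members, 10 rose and 0 fell, and all 14 had positive log2 fold changes with a median of 1.78, beside -0.0 over all genes tested. Only 1 of 22 beta-cluster members and 5 of 22 gamma-cluster members rose, with medians of 0.05 and 0.29, and 0 fell in either cluster. Pcdha4 illustrates the group, with alpha values of 7.82 to 9.38 (median 8.27), beta values of 10.1 to 11.7 (median 10.6) and a difference of 2.22 ± 0.28 (adjusted p = 1.36e-07). The other alpha-cluster members among the 8 largest rises were Pcdhac2 (3.09 ± 0.68), Pcdha10 (2.62 ± 0.57), Pcdha9 (2.39 ± 0.45) and Pcdha12 (2.21 ± 0.51). Pcdhac2 is 1 of the 2 C-type isoforms, which are transcribed by a rule different from that of the other variable exons. Its values of 1.36 to 5.65 in alpha and 5.53 to 7.69 in beta just overlapped.

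These rows are not independent measurements. In the GENCODE M21 annotation of GRCm38, each matched alpha-cluster gene shares 2860 or 2864 exon bases with 12 others, such as 49.7% of the exon bases of Pcdha4. Each gamma-cluster gene shares exon bases with 21 others, such as 39.5% of those of Pcdhga1, whereas Pcdhb1 shares 0. How reads in shared exons were assigned is not given in the sources used here, so values of single alpha- and gamma-cluster rows are uncertain. Pcdha10 has no gene of that name in the annotation used.

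Some rows moved almost as 1 row. Pcdha2 and Pcdha4 differed by at most 0.54 in any library and correlated at r = 0.986 over the 30 libraries, a description of rows that share exons and libraries. Pcdhga1, Pcdhgb2, Pcdhga9 and Pcdhga11 stayed within 0.18 to 0.47 of each other in every library, with r from 0.912 to 0.967. The next closest pair in either cluster, Pcdhga6 and Pcdhgb4, differed by up to 0.90.

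**Figure D2:**
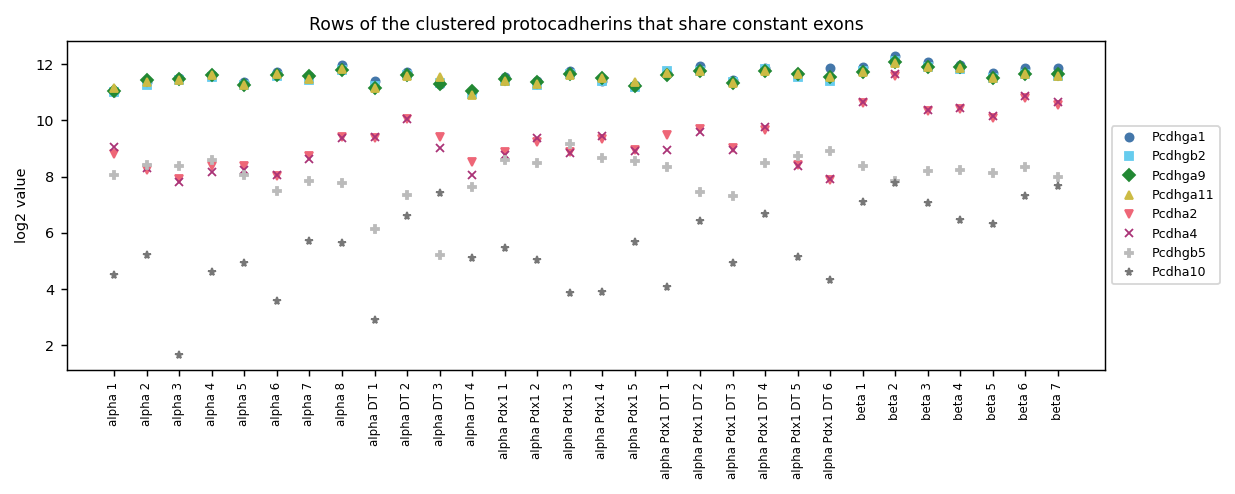
Log2 values of 8 clustered protocadherin rows (vertical axis) in each of the 30 libraries (horizontal axis). The points of Pcdhga1, Pcdhgb2, Pcdhga9 and Pcdhga11 lie on top of each other, as do those of Pcdha2 and Pcdha4, while those of Pcdhgb5 and Pcdha10 lie apart from them. Pcdha2 and Pcdha4 are highest in the 7 beta libraries.

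Whether Pdx1 in alpha-cells moves these genes was read from alpha Pdx1 against alpha. 5 of 11 classical cadherins were higher with Pdx1, led by Cdh4 and Cdh24, and no clustered protocadherin passed the test. Of 76 tested members, 7 were higher and 0 lower, or 9.21%, beside 4.33% of all genes tested (2.36% higher and 1.98% lower). Beside the 5 classical cadherins they were the cadherin-related Cdhr1 and Pcdh15 outside the clusters. The count was 5 higher and 0 lower when only these 2 groups were fitted, where 4.12% of all genes passed. It was 11 higher and 0 lower without the 5 libraries, where 6.67% of all genes passed. It was 1 (Cdh4) with the log2 value of Rn18s-rs5, an 18S ribosomal RNA row, as a covariate, where 0.685% of all genes passed. That row was 16.9 to 18.3 in alpha Pdx1 and 17.7 to 20.5 in alpha, and its part in the result was not tested further.

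Cdh4 (R-cadherin, chromosome 2, 179442431-179899373) is a classical cadherin that can pair with Cdh2. Its alpha values were 7.08, 6.3, 6.74, 7.3, 6.38, 6.76, 7.0 and, in alpha 8, 10.2. Its alpha Pdx1 values were 10.3, 10.6, 9.8, 10.2 and, in alpha Pdx1 5, 8.9. Apart from alpha 8, whose Pdx1 was also high, every alpha Pdx1 library was above every alpha library, and alpha Pdx1 5 was the lowest of its group. The difference was 2.75 ± 0.51 (adjusted p = 0.00261), 3.44 without the 5 libraries (adjusted p = 1.16e-08) and 3.02 with the ribosomal covariate (adjusted p = 0.0422).

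Cdh24 (chromosome 14, 54631231-54641364), a type II cadherin, had alpha values of 3.03 to 5.76 in 7 libraries and 7.39 in alpha 8. It had 7.74 to 8.73 in 4 alpha Pdx1 libraries and 4.76 in alpha Pdx1 5. The difference of 2.66 ± 0.63 passed (adjusted p = 0.0126), and it was 3.71 without the 5 libraries (adjusted p = 6.94e-07). That fit leaves out alpha 8 and alpha Pdx1 5, which were chosen by their Pdx1 level, so it is not an independent check. The groups overlapped only through alpha Pdx1 5, and alpha 8 was the highest of its group. Leaving out alpha Pdx1 3 or alpha Pdx1 4 ended the call, as did fitting only the 2 groups.

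Pcdh15, a component of the tip links of hair cells (chromosome 10, 73099342-74649737), ranged over 9.83 to 11.2 in 7 alpha libraries, was 12.3 in alpha 8 and ranged over 11.95 to 12.7 in alpha Pdx1. The difference was 1.5 ± 0.27 (adjusted p = 0.00217). Cdhr1 went from a median of 8.79 to 10.6 (1.44 ± 0.33, adjusted p = 0.0102), with 10.8 in alpha 8 inside the alpha Pdx1 range of 9.91 to 11.1. Cdh4, Cdhr1 and Pcdh15 passed whichever single library was left out.

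The other 3 rises were of Cdh1, Cdh8 and Cdh12. Cdh1 rose by 0.91 ± 0.23 (adjusted p = 0.0188), from a median of 12.6 in alpha to 13.6 in alpha Pdx1. Cdh8, a type II cadherin of cortical and thalamic circuits, rose by 1.02 ± 0.26 (adjusted p = 0.0187), from a median of 9.89 to 11.1. Cdh12 rose by 1.66 ± 0.47 (adjusted p = 0.0351), from a median of 5.69 to 7.25. The calls of Cdh1 and Cdh8 were lost on leaving out alpha Pdx1 2, alpha Pdx1 3 or alpha Pdx1 4, and that of Cdh12 on leaving out any of 8 libraries. Cdh2 at 0.45 ± 0.14 (adjusted p = 0.0706), Cdh22 at 1.19 ± 0.48 (adjusted p = 0.168) and Cdh11 at 0.39 ± 0.39 (adjusted p = 0.67) did not pass.

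In this comparison the direction of Cdh12 was opposite to that of beta against alpha. Cdh12 was 2.24 lower in beta and 1.66 higher in alpha Pdx1, each against the same alpha libraries. Cdh24 and Cdh4, the 2 largest rises with Pdx1, differed in beta by 0.35 ± 0.57 (adjusted p = 0.675) and 1.12 ± 0.46, neither called. Cdh1, Cdh8, Pcdh15 and Cdhr1 were called higher in both comparisons. The beta values of Cdh8 (1.31 ± 0.24, adjusted p = 4.3e-05) and Pcdh15 (1.21 ± 0.24, adjusted p = 0.000164) are given here because of their change with Pdx1 and were not among the 8 largest rises. The 2 comparisons share the alpha libraries, so their agreement in sign is not an independent measurement. All 14 alpha-cluster members had positive values with Pdx1 (median 0.67, beside 0.03 over all genes), and 0 of 14 passed. This was not particular to that cluster, since 66 of the 76 tested members were positive (median 0.53). The medians were 1.02 for the classical cadherins, 0.51 for the beta cluster and 0.38 for the gamma cluster.

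**Figure D3:**
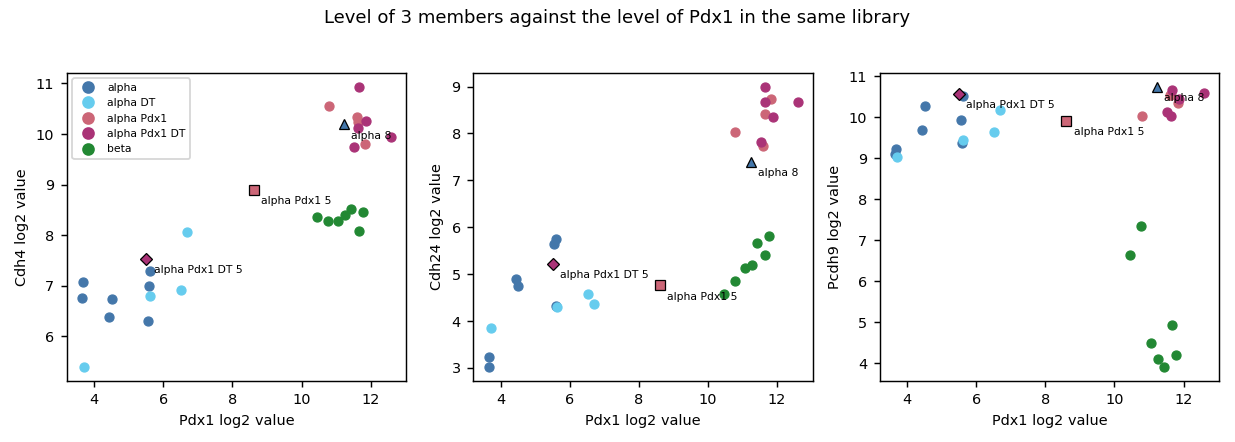
Log2 value of Cdh4, Cdh24 and Pcdh9 (vertical axes) against the log2 value of Pdx1 in the same library (horizontal axes). Colours mark the 5 groups, and the 3 libraries whose Pdx1 level stood apart from their group are drawn with their own marker. Alpha 8 lies with the Pdx1 groups for Cdh4 and Cdh24, and alpha Pdx1 DT 5 lies with alpha. The beta libraries have Pdx1 at 10.4 or above, Cdh4 between 8.08 and 8.52 and Pcdh9 at 7.34 or below.

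How the same genes stood in alpha-cells with Pdx1 after the toxin was read from alpha Pdx1 DT against alpha. Of 76 tested members, 10 were higher and 0 lower, or 13.2%, beside 7.81% of all genes tested (4.06% higher and 3.75% lower). They included 6 of 11 classical cadherins, 2 of 5 tested protocadherins outside the clusters, Cdhr1 and 1 beta-cluster member. The count was 0 when only these 2 groups were fitted and 0 with the ribosomal covariate, and 0% of all genes passed in either fit. It was 15 higher and 3 lower without the 5 libraries, where 20.5% of all genes passed. Of the 14 fits without 1 library, the call of Cdh8 was lost in 12, that of Cdh7 in 9 and that of Pcdhb17 in 7. Neuron-like Stmn2 was called higher at 3.95 ± 1.01 (adjusted p = 0.0176), and its part was not tested.

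Cdh24 had the largest difference here, at 3.07 ± 0.60 (adjusted p = 0.00527). It was 7.81 to 8.99 in 5 alpha Pdx1 DT libraries and 5.22 in alpha Pdx1 DT 5, whose Pdx1 was at the alpha level. Cdh4 followed at 2.53 ± 0.48 (adjusted p = 0.00527), with 9.75 to 10.9 in those 5 libraries and 7.53 in alpha Pdx1 DT 5. Without the 5 libraries the differences were 3.98 for Cdh24 and 3.4 for Cdh4. Cdhr1 (1.30 ± 0.31, adjusted p = 0.0142), Pcdh15 (0.93 ± 0.25, adjusted p = 0.0238), Cdh1 (0.86 ± 0.22, adjusted p = 0.0187) and Cdh8 (0.78 ± 0.25, adjusted p = 0.046) were higher in this comparison as well as in alpha Pdx1 against alpha, which shares its alpha libraries.

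Another 4 members were called here and not in alpha Pdx1 against alpha. Cdh22 rose by 1.91 ± 0.46 (adjusted p = 0.0136), and its values of 5.67 to 6.97 were all above those of alpha. Cdh7 rose by 1.78 ± 0.55 (adjusted p = 0.0409), from a median of 1.85 to 3.49, still under the level of 5 in all but 1 of the 6 libraries. Pcdh10, a protocadherin of amygdala and striatal circuits, rose by 2.19 ± 0.58 (adjusted p = 0.0207), with values of 4.3 to 6.64 in 5 libraries and 9.20 in alpha Pdx1 DT 6. Its call was lost without alpha Pdx1 DT 1 or alpha Pdx1 DT 6. Pcdhb17 rose by 1.08 ± 0.32 (adjusted p = 0.0355). Their differences between alpha Pdx1 DT and alpha Pdx1 were 0.72 ± 0.51 for Cdh22, -0.07 ± 0.61 for Cdh7 and 0.82 ± 0.65 for Pcdh10, none of which passed. Cdh2 (0.31 ± 0.14, adjusted p = 0.145) and Cdh11 (0.08 ± 0.37, adjusted p = 0.915) did not pass.

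**Figure D4:**
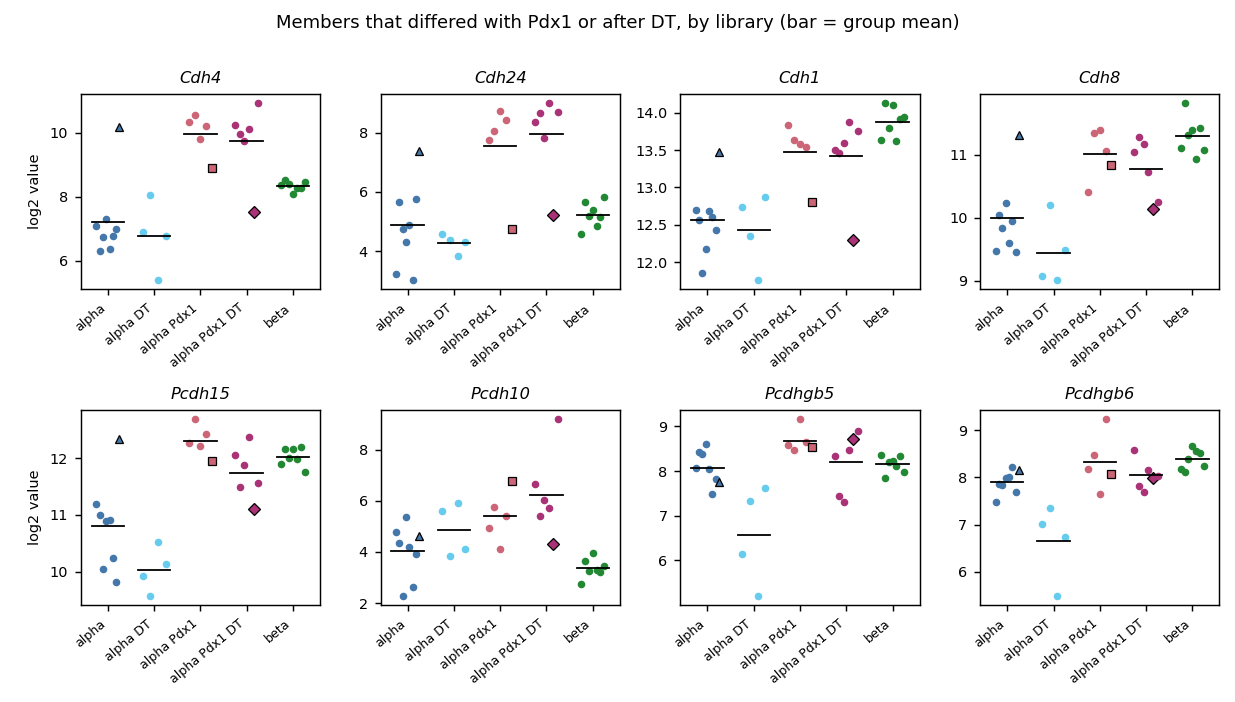
Log2 values of 8 members by library in the 5 groups, each panel with its own vertical axis and a bar at the group mean. The triangle is alpha 8, the square alpha Pdx1 5 and the diamond alpha Pdx1 DT 5. Cdh4 and Cdh24 are high in both Pdx1 groups and in alpha 8, and Pcdhgb5 and Pcdhgb6 are low in alpha DT, where alpha DT 3 is the lowest point.

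Alpha-cells after the toxin and without Pdx1 were read from alpha DT against alpha. No member rose, and 5 members, all of the gamma protocadherin cluster, were lower. They make 6.58% of the 76 tested members, beside 3.26% of all genes tested (1.57% higher and 1.7% lower). All 22 gamma-cluster members had negative differences, with a median of -0.77 beside -0.06 over all genes, and 12 had an unadjusted p under 0.05, beside 3335 of 16633 genes. The 14 alpha-cluster members had a median of 0.33 and the 22 beta-cluster members one of -0.02, and 0 passed in either.

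Pcdhgb5 had alpha DT values of 6.14, 7.33, 5.21 and 7.62, against 7.48 to 8.60 in alpha (median 8.06). The groups overlapped slightly, and the difference of -1.5 ± 0.34 passed (adjusted p = 0.0118). Pcdhgb6 had alpha DT values of 7.01, 7.34, 5.49 and 6.74, all below the alpha range of 7.47 to 8.21, and a difference of -1.26 ± 0.28 (adjusted p = 0.0124). Both are B-type gamma isoforms, each with a variable exon of its own. Pcdhgb4 at -1.12 ± 0.32 (adjusted p = 0.0485), with alpha DT values of 5.9 to 7.74 and alpha values of 7.79 to 8.76, did not overlap either. Pcdhga7 at -1.17 ± 0.29 (adjusted p = 0.0243) and Pcdhga10 at -0.92 ± 0.25 (adjusted p = 0.0351) did overlap.

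These calls depended on single libraries. Alpha DT 3 was the lowest of its group for Pcdhgb4, Pcdhgb5, Pcdhgb6 and Pcdhga7, and 0 members passed without it, where 3.89% of all genes did. The adjusted p in that fit was 0.0565 for Pcdhgb5 and 0.0566 for Pcdhgb6. Of the 12 libraries, leaving out any of 10 ended the call of Pcdhgb4 and any of 7 that of Pcdhga10. Pcdhgb4 was also not called without the 5 libraries (adjusted p = 0.0619). None passed either when only the 2 groups were fitted, where 0 gamma members were called with the same median of -0.77. All 22 gamma differences were negative in each of the 7 alternative fits other than leaving out 1 library. Those 7 fits all kept alpha DT 3, so they do not show the sign or the median of the 22 rows without it. Pcdhgc4 and Pcdhgc5 were 2.0 in alpha DT 3, the lowest value of that library. Pcdhga2 was 5.51 in alpha DT 3 and 7.54, 8.21 and 4.68 in the other alpha DT libraries, against an alpha mean of 6.77. Its negative sign therefore depended on alpha DT 3. The rows also share exons, so the 22 signs are not independent. The 4 rows that move together, Pcdhga1, Pcdhgb2, Pcdhga9 and Pcdhga11, had differences of -0.15, -0.15, -0.19 and -0.18, the smallest of the cluster.

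Alpha DT libraries also held more leukocyte transcripts. The summed level of the 7 of 8 leukocyte markers in the table was 11.8 to 15.9 in alpha DT and 7.95 to 11.2 in alpha, and 3 of the 7 were called higher. Alpha DT 3 had the fewest members at 5 or above of all libraries (51) and the lowest leukocyte sum of its group (11.8). Acinar markers summed to 12.3 to 18.3 in alpha DT and 10.9 to 17.6 in alpha. The PP-cell marker Ppy was 17.92 to 18.63 in alpha DT and 14.97 to 17.92 in alpha, and neuron-like Stmn2 was called higher at 4.85 ± 1.14 (adjusted p = 0.0172). Whether other cells' RNA bears on the gamma values was not tested. The main islet cadherins did not pass: Cdh1 differed by -0.13 ± 0.25 (adjusted p = 0.808) and Cdh2 by -0.31 ± 0.15 (adjusted p = 0.259). Nor did Cdh4 at -0.43 ± 0.55 (adjusted p = 0.706) or Cdh22 at 0.21 ± 0.52 (adjusted p = 0.853). Cdh11 was just outside the threshold at -1.44 ± 0.42 (adjusted p = 0.0502), with alpha DT values of 3.93 to 5.71 and alpha values of 5.12 to 7.46.

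**Figure D5:**
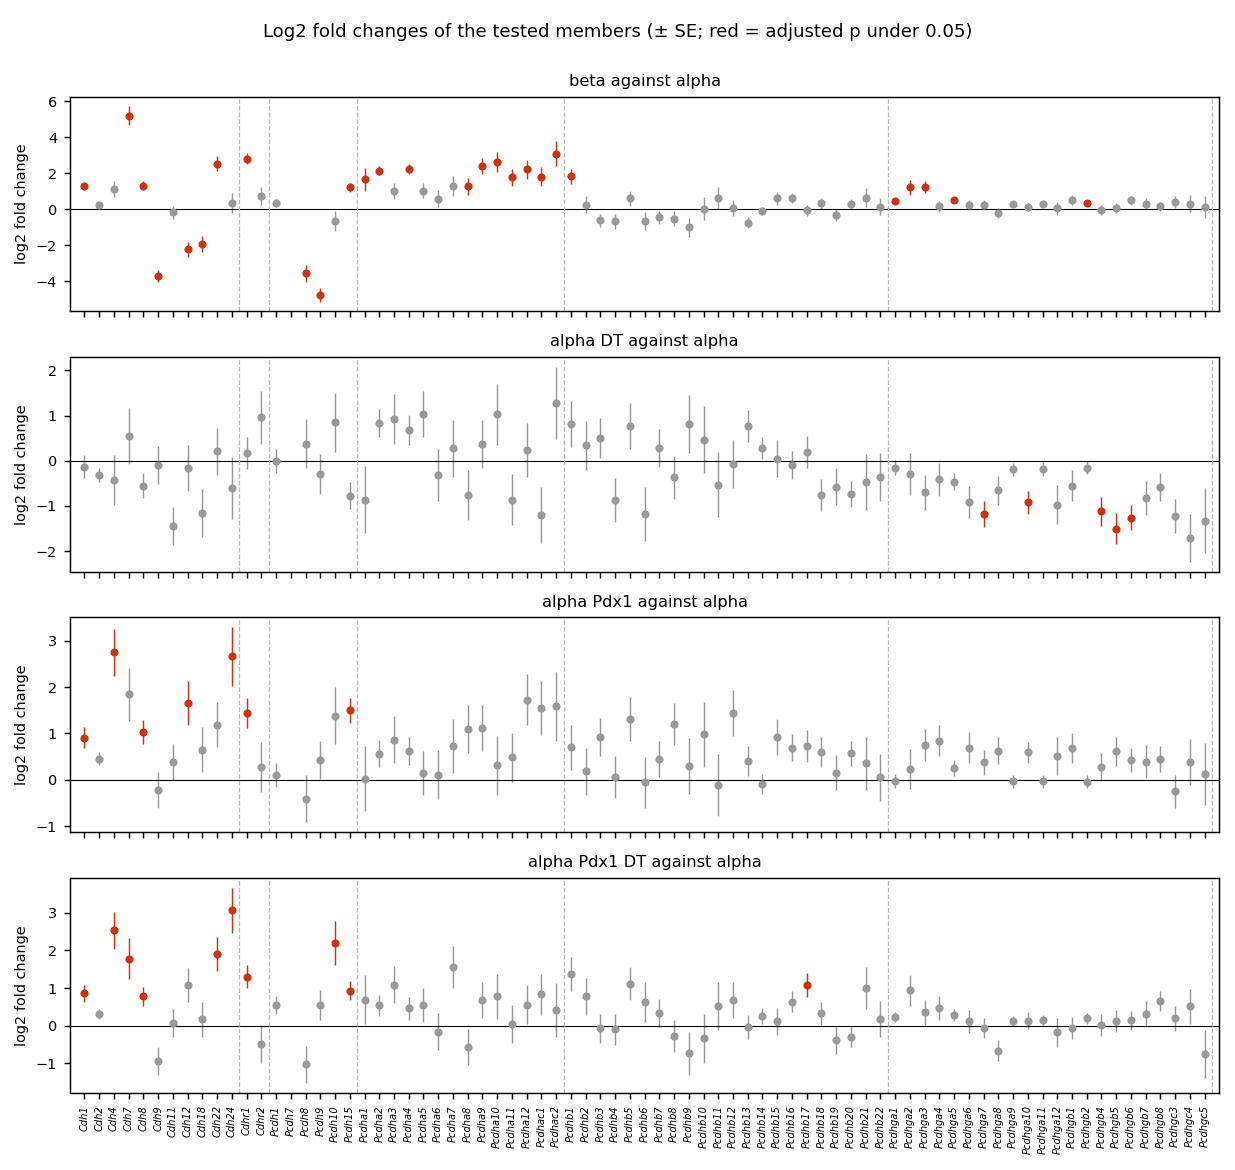
Log2 fold changes of the 76 tested members (points, with bars of 1 SE) in 4 comparisons, in the order classical cadherins, cadherin-related genes, protocadherins outside the clusters, then the alpha, beta and gamma clusters, with red for an adjusted p under 0.05. The alpha cluster lies above 0 in beta against alpha, the gamma cluster lies below 0 in alpha DT against alpha, and the calls with Pdx1 are mostly at the left among the classical cadherins. Vertical scales differ between panels.

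Within toxin-treated mice, the presence of Pdx1 was read from alpha Pdx1 DT against alpha DT. Of 76 members, 12 were higher and 0 lower, or 15.8%, beside 2.1% of all genes tested (1.78% higher and 0.319% lower). They were 5 classical cadherins, Pcdh15 and 6 of 22 gamma-cluster members. Fitting only these 2 groups left 0 calls, with 0% of all genes called. Leaving out alpha DT 3 gave 4 calls, 3 of them among the 12, with 0.833% of all genes called. This comparison and that of alpha DT with alpha share the alpha DT libraries, so low gamma values there enter both.

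Cdh24 differed by 3.68 ± 0.72 (adjusted p = 0.00569), with alpha DT values of 4.58, 4.37, 3.85 and 4.3, all below the alpha Pdx1 DT libraries. Cdh4 differed by 2.96 ± 0.58 (adjusted p = 0.00573), with alpha DT values of 6.91, 8.06, 5.4 and 6.79, and overlapped only through alpha Pdx1 DT 5. Pcdh15 differed by 1.70 ± 0.30 (adjusted p = 0.00289), from 9.58 to 10.5 in alpha DT to 11.1 to 12.4 in alpha Pdx1 DT, without overlap. These 3 passed whichever single library was left out. Cdh8 (1.33 ± 0.29, adjusted p = 0.0145), Cdh1 (0.99 ± 0.26, adjusted p = 0.0403) and Cdh2 (0.61 ± 0.16, adjusted p = 0.0396) were also higher, and this was the only comparison in which Cdh2 passed. Leaving out any of 7 of the 10 libraries ended the call of Cdh1, and any of 6 that of Cdh2.

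The gamma-cluster members called were Pcdhgc4 (2.22 ± 0.56, adjusted p = 0.0312), Pcdhgb5 (1.63 ± 0.35, adjusted p = 0.0122), Pcdhgb6 (1.40 ± 0.30, adjusted p = 0.0115), Pcdhgb8 (1.24 ± 0.31, adjusted p = 0.0317), Pcdhga10 (1.05 ± 0.26, adjusted p = 0.0284) and Pcdhga5 (0.74 ± 0.20, adjusted p = 0.0403). Pcdhgc4, a C-type isoform, was 2.0 in alpha DT 3, the lowest value of that library, and 5.99 to 6.79 in the other alpha DT libraries, against 6.49 to 8.92 in alpha Pdx1 DT. All 6 calls were lost without alpha DT 3. In alpha Pdx1 DT against alpha, where alpha DT plays no part, 0 of 22 gamma members passed and their median was 0.14. Cdh22 (1.70 ± 0.54, adjusted p = 0.0904) and Cdh11 (1.52 ± 0.44, adjusted p = 0.0606) did not pass.

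With Pdx1 present, the toxin was read from alpha Pdx1 DT against alpha Pdx1. Here 0 members were higher and 3 lower, or 3.95%, beside 9.22% of all genes tested (4.83% higher and 4.39% lower). Pcdhga8 differed by -1.30 ± 0.31 (adjusted p = 0.0105), from 9.04 to 9.58 in alpha Pdx1 to 6.66 to 8.85 in alpha Pdx1 DT, without overlap, and it kept its call whichever library was left out. Pcdhb8 differed by -1.47 ± 0.48 (adjusted p = 0.0459) and Pcdhb20 by -0.89 ± 0.29 (adjusted p = 0.0495), 2 beta-cluster isoforms, which have no constant exons. Of the 11 fits without 1 library, Pcdhb8 passed in 3 and Pcdhb20 in 2. Both were also lost when only the 2 groups were fitted. With the ribosomal covariate all 3 calls were lost, and Pcdhga8 was then at -0.16. Summed leukocyte markers were 8.26 to 15.7 in alpha Pdx1 DT and 7.63 to 9.62 in alpha Pdx1, and their part was not tested. Cdh1 (-0.06 ± 0.25), Cdh2 (-0.14 ± 0.15), Cdh4 (-0.21 ± 0.54), Cdh11 (-0.31 ± 0.42) and Cdh22 (0.72 ± 0.51) did not pass (adjusted p from 0.374 to 0.906).

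Whether the toxin's effect differed with Pdx1 was tested as an interaction. Limma called 0 of 16633 genes, or 0%, and 0 of 76 members. An unadjusted p under 0.05 was found for 1527 genes and for 10 members. The interaction was 0.07 ± 0.35 for Cdh1, 0.17 ± 0.22 for Cdh2, 0.22 ± 0.77 for Cdh4, 1.13 ± 0.59 for Cdh11 and 0.51 ± 0.73 for Cdh22. The gamma cluster had a median of 0.45 and 20 of 22 positive values, none called. A difference between the toxin's effects with and without Pdx1 was therefore not shown for any member.

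How far alpha-cells with Pdx1 and the toxin remained from beta-cells was read from alpha Pdx1 DT against beta. Of 76 members, 9 were higher and 10 lower, or 25%, beside 26.3% of all genes tested (12.9% higher and 13.4% lower). The members higher in alpha Pdx1 DT were Pcdh9 (5.32 ± 0.40, adjusted p = 8.04e-12), Cdh12 (3.33 ± 0.46), Pcdh10 (2.84 ± 0.60), Cdh9 (2.79 ± 0.38), Cdh24 (2.72 ± 0.62), Pcdh8 (2.53 ± 0.50), Cdh18 (2.11 ± 0.48) and Cdh4 (1.41 ± 0.50, adjusted p = 0.0334), with Pcdhb17 (1.15) beside them. Of these, Cdh4, Cdh24, Pcdh10 and Pcdhb17 were also higher than in alpha. The call of Cdh4 against beta was lost with the ribosomal covariate (adjusted p = 0.116). It passed in 7 of the 13 fits without 1 library. With all 30 libraries, Pcdh9, Cdh9, Pcdh8, Cdh12 and Cdh18 did not differ from alpha at the threshold (adjusted p from 0.099 to 0.856). Those libraries include alpha Pdx1 DT 5, whose Pdx1 was at the alpha level. Cdh9 was 10.2 in alpha Pdx1 DT 5 and 8.36 to 9.54 in the rest of its group, against 9.58 to 10.8 in alpha. The rest lay below every alpha library, so the result with all 30 libraries does not place Cdh9 at the alpha level. Pcdh8 was 8.46 in alpha Pdx1 DT 5 and 4.77 to 8.27 in the rest of its group, against 6.59 to 9.21 in alpha. For Pcdh9, Cdh12 and Cdh18 that library lay within the range of the rest. Pcdh9 lay between 10.04 and 10.7 in the 6 alpha Pdx1 DT libraries, above every beta library.

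Among the lower members, Cdh7 differed by -3.4 ± 0.56 (adjusted p = 1.82e-05) and did not overlap with beta. The other 7 of the 8 largest deficits were alpha-cluster members, led by Pcdhac2 (-2.67), Pcdha8 (-1.85), Pcdha10 (-1.84) and Pcdha4 (-1.76 ± 0.30, adjusted p = 3.46e-05), then Pcdha11 (-1.72), Pcdha9 (-1.71) and Pcdha12 (-1.64), which was not called without the 5 libraries (adjusted p = 0.0518). In all, 8 of 14 alpha-cluster members were lower, with a cluster median of -1.62 beside -0.04 over all genes. With the ribosomal covariate 3 of 14 were called and the median was -1.03. Cdh1 (-0.46 ± 0.23, adjusted p = 0.141), Cdh2 (0.11 ± 0.14, adjusted p = 0.622), Cdh11 (0.26 ± 0.38, adjusted p = 0.665) and Cdh22 (-0.62 ± 0.47, adjusted p = 0.359) did not differ at the threshold.

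Genes that work with the cadherins were read from lists of their partners, whose counts stand beside 34.5% of all genes called in beta against alpha, 4.33% in alpha Pdx1 and 3.26% in alpha DT, each against alpha. Of 14 catenin and p120 family genes, which tie cadherins to actin, 2 were higher and 3 lower in beta than in alpha. Ctnnb1 (beta-catenin) was higher by 0.60 ± 0.17 (adjusted p = 0.00568) and Pkp4 by 0.54 ± 0.18, while Arvcf, which binds the cadherin tail beside p120, was at -1.22 ± 0.19 (adjusted p = 4.11e-06) and Jup (plakoglobin) at -0.90 ± 0.17. In alpha Pdx1 against alpha, 1 rose and 1 fell, Ctnnb1 at 0.68 ± 0.19 (adjusted p = 0.0281) and Arvcf at -0.73 ± 0.21 (adjusted p = 0.0376), each with the sign it had in beta against the same alpha libraries. In alpha DT, 0 rose and 3 fell, among them Pkp3 (-1.40 ± 0.38) and Jup (-0.73 ± 0.20).

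Of 4 desmosomal genes, 2 were higher in beta, Dsp (desmoplakin, 2.11 ± 0.21, adjusted p = 1.21e-09) and Dsc2 (1.85 ± 0.33). Dsp was lower after the toxin, at -1.08 ± 0.25 (adjusted p = 0.0147) in alpha DT against alpha and -0.98 ± 0.25 (adjusted p = 0.014) in alpha Pdx1 DT against alpha Pdx1. Of 11 large or divergent cadherins, 3 were higher and 2 lower in beta, including Celsr1 (1.98 ± 0.46), a planar polarity cadherin, and Fat4 (-1.39 ± 0.33). Clstn2, a calsyntenin, was the 1 of the 11 called in alpha Pdx1 against alpha (2.23 ± 0.46, adjusted p = 0.00558).

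Of 15 nectins and other junction molecules, 6 were higher and 5 lower in beta, with Cadm1 at -2.62 ± 0.21 (adjusted p = 1.61e-11) and Cadm2 at -2.77 ± 0.40 lowest, and Pvrl4 (2.79 ± 0.67) and Jam2 (2.31 ± 0.44) highest. L1cam, a neural adhesion molecule, rose in alpha DT (2.48 ± 0.40, adjusted p = 0.00122), and Epcam was lower there (-0.73 ± 0.20, adjusted p = 0.0372). L1cam was also higher in alpha Pdx1 (1.34 ± 0.37, adjusted p = 0.0313) and alpha Pdx1 DT (1.40 ± 0.35, adjusted p = 0.017), against the same alpha libraries. It was called higher in beta too (1.81 ± 0.34, adjusted p = 6.96e-05), a value given because of these rises. Of 13 regulators of the clustered protocadherins, 1 rose and 2 fell in beta. They were Dnmt3b (0.99 ± 0.32), a DNA methyltransferase, Rest (-1.60 ± 0.48), a repressor of neuronal genes, and the cohesin subunit Stag1 (-0.38 ± 0.15). In alpha DT against alpha, 0 of these 13 passed. In alpha Pdx1 against alpha, 0 rose and 1 fell, the cohesin subunit Rad21 (-0.65 ± 0.15, adjusted p = 0.01). In alpha Pdx1 DT against alpha Pdx1, 2 rose and 2 fell, beside 9.22% of all genes called. They were Wiz (0.94 ± 0.22), Rad21 (0.57 ± 0.16), Nipbl (-0.63 ± 0.19) and Smc3 (-0.49 ± 0.15). The part of these regulators in the clustered values was not tested.

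Of 5 repressors of Cdh1, 2 were lower in beta, Snai2 at -1.38 ± 0.37 (adjusted p = 0.00379) and Klf8 at -1.35 ± 0.24 (adjusted p = 2.92e-05). None of the 5 passed in alpha Pdx1 against alpha, and Tcf4 was higher in alpha Pdx1 DT against alpha (0.59 ± 0.18, adjusted p = 0.0432). Of 12 cadherin proteases, 1 was higher and 0 lower in beta, and none passed in either single-factor comparison with alpha. Of 15 actin effectors of protocadherins, 5 were higher and 5 lower in beta, among them Ret (1.51 ± 0.19) and Cyfip2 (1.20 ± 0.19), and Cyfip2 was also higher in alpha Pdx1 (1.09 ± 0.21, adjusted p = 0.00346).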

How the data were processed

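RNA of sorted mouse islet cells was sequenced in 30 libraries of 5 groups. Per the submitters' processing notes, GSNAP was the aligner and GRCm38 the genome build. For the annotation, the counting rule, the strand setting and the depth, the answer is not given in the sources used here. All values, as the authors deposited them, are log2 values for 17775 genes in libraries that share 1 distribution, as quantile normalization gives. Where digit column names made a check by unit impossible, the columns were recorded as another unit, though all 30 hold the same deposited log2 scale. A fold change is a difference of these values.

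Genes at 5 or more in at least 4 libraries were tested, 16633 in all. Limma 3.58.1 in R 4.3.3 (trend and robust empirical Bayes) fitted 1 mean per group to all 30 libraries, and two-sided p-values were adjusted by Benjamini-Hochberg over all genes tested within each of 8 contrasts, with a threshold of 0.05. The code was checked on simulated data. Members named in a contrast are those past the threshold where 16 or fewer passed, otherwise the 8 largest rises and 8 largest falls, and in every contrast Cdh1, Cdh2, Cdh4, Cdh11 and Cdh22. Of each partner list, up to 2 rises and 2 falls were named. The members and lists were chosen with earlier results of these data known. A marker sum is the log2 of the summed linear values of a list.

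Other fits used no filter, a minimum of 6, an offset of 32 linear units, only the 2 groups compared (4 for the interaction), the log2 value of Rn18s-rs5 as a covariate, a common median per library, and libraries left out. Replicate numbers were given in accession order and pair nothing. Upstream windows and gene models came from RefSeq (GRCm38.p6) and GENCODE M21. Tables were made in Python 3.11.15 (pandas 2.3.3, numpy 2.4.6) and figures with matplotlib 3.10.9.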

Additional observations from a re-analysis of the deposited data

Results flagged for a closer look

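In 150 groups of libraries (30 members in 5 groups), 12 single values lay apart from the rest of their group by Dixon's 95% criterion, where chance alone flags about 1 group in 20. Of these, 9 belonged to the 3 libraries whose Pdx1 level stood apart from their group, whose values are given in the report. In alpha 8 they were Cdh2 at 13.39 (others 12.48 to 12.62), Cdh4 at 10.19 (others 6.3 to 7.3), Cdh8 at 11.32 (others 9.45 to 10.23) and Cdhr1 at 10.8 (others 8.63 to 9.3). In alpha Pdx1 DT 5 they were Cdh1 at 12.3 (others 13.46 to 13.88), Cdh4 at 7.53 (others 9.75 to 10.93) and Cdh24 at 5.22 (others 7.81 to 8.99). In alpha Pdx1 5 they were Cdh1 at 12.8 (others 13.54 to 13.84) and Cdh24 at 4.76 (others 7.74 to 8.73).

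The other 3 values were of other kinds. Cdhr2, a cadherin of intestinal microvilli, was 10.38 in beta 1 and 5.88 to 7.26 in the other beta libraries. Acinar markers summed to 18.79 in beta 1 and to 18.85 in beta 5. Beta 1 also had the highest duct (12.86), endothelial (9.96) and leukocyte (15.29) marker sums of the beta group. The part of other cells' RNA in this Cdhr2 value was not tested. In alpha Pdx1 3, Cdh22 was 4.19 (others 5.72 to 6.12) and Pcdhgb5 was 9.17 (others 8.47 to 8.65).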

How the results depend on the processing

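Counts of called members in beta against alpha (24 to 33 on leaving out 1 library), alpha Pdx1 DT against beta (16 to 20) and the interaction (0) stayed within 1.5 times in every fit run, and 23 of 27 and 12 of 19 calls of the first pair held in all 7 other fits. The rest moved. Fitting only the groups compared gave 0 members for alpha DT against alpha, 0 for alpha Pdx1 DT against alpha, 0 for alpha Pdx1 DT against alpha DT and 1 for alpha Pdx1 DT against alpha Pdx1. The Rn18s-rs5 covariate gave 1 for alpha Pdx1 against alpha, 0 for alpha Pdx1 DT against alpha and 0 for alpha Pdx1 DT against alpha Pdx1. In the last of these the Rn18s-rs5 values of the groups did not overlap, so the covariate can hardly be separated from the contrast. Leaving out the 5 libraries gave 11 for alpha Pdx1 against alpha and 18 for alpha Pdx1 DT against alpha. Leaving out 1 library gave 0 (without alpha DT 3) to 9 (without alpha DT 4) for alpha DT against alpha, 3 (without alpha Pdx1 3 or alpha Pdx1 4) to 9 for alpha Pdx1 against alpha, 3 (without alpha Pdx1 DT 6) to 16 (without alpha Pdx1 DT 5) for alpha Pdx1 DT against alpha, 4 (without alpha DT 3) to 17 for alpha Pdx1 DT against alpha DT and 1 to 4 for alpha Pdx1 DT against alpha Pdx1. Fewer libraries carry less information about the spread, and apart from that the causes were not tested.

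Over the named members, 641 alternative values kept direction and call, 100 lost and 12 gained the call, and 15 changed sign, all of differences that were not called. These were Cdh11 in beta against alpha without the 5 libraries (0.071), and in alpha Pdx1 DT against alpha with the covariate (-0.11) and without alpha 2 (-0.076). In alpha DT against alpha they were Cdh1 (0.09) and Cdh4 (0.034) without alpha DT 3 and Cdh22 (-0.10) without alpha DT 1. In alpha Pdx1 DT against alpha Pdx1 they were Cdh1 (0.031) without alpha Pdx1 1 and Cdh4 (0.23) without alpha Pdx1 DT 5. For the interaction they were Cdh1 (-0.27) and Cdh4 (-0.19) with the covariate, Cdh1 (-0.004) and Cdh4 (-0.03) without the 5 libraries, Cdh1 (-0.058) and Cdh4 (-0.21) without alpha 8 and Cdh22 (-0.14) without alpha DT 4. No paired analysis was possible because the labels give no replicate number that groups share.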
